A study of Bos taurus with 23 samples.

Results

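Explants of bovine endometrium cultured with an in vivo derived (AI) conceptus were compared with explants cultured in medium alone. The comparison rests on 10 of the 23 libraries of the series, chosen by their treatment label: 4 AI libraries (uteri 1 to 4) and 6 Control libraries (uteri 1, 2, 3, 4, 5 and 10). The explants of uteri 1 to 4 form 4 pairs, 1 AI and 1 Control explant with the same uterus number, and the Control explants of uteri 5 and 10 have no AI partner. The series also holds 6 explants given 100 ng per mL of recombinant ovine interferon tau (IFNT) and 7 given an in vitro produced (IVF) conceptus, which are used below only to show where AI differs.

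All explants were intercaruncular endometrium, the glandular tissue between the sites where the placenta attaches, from uteri in the mid luteal phase. Each explant spent 6 h in RPMI culture medium, which Control explants received alone and which held a Day 15 conceptus in the AI wells. AI means that the transferred blastocyst had developed in vivo. The AI conceptuses of uteri 1, 2, 3 and 4 measured 31, 29, 23.5 and 21 mm, and the first 3 were female and the last was male. All 4 AI titles carry the same further code. The labels leave its meaning unstated. Should it stand for a common source, the 4 would not be independent. The AI columns of the table are also numbered apart from those of Control and IFNT, so a batch along these numbers and the AI treatment cannot be told apart. The labels do not spell out what the uterus number stands for, and the p-values measure the spread between explants.

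As background, the elongating ruminant conceptus signals its presence by secreting interferon tau from its outer cell layer, the trophectoderm. Interferon tau binds the type I interferon receptor of endometrial cells and, through kinases and transcription factors of the JAK and STAT families, switches on a large set of interferon-stimulated genes. It also keeps the uterine lining from releasing the prostaglandin pulses that would end the life of the corpus luteum. The conceptus also releases prostaglandins, cortisol and further proteins besides interferon tau, so its effect need not be that of interferon tau alone.

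Read counts per gene were available with Ensembl identifiers only. The reference table at hand paired 0 of the 18897 identifiers with a symbol. Genes are therefore described in groups, and 4 are given by identifier. For that reason the endometrial origin of the libraries could not be checked against marker genes, and no marker of trophoblast or blood cells could be read. Total counts lay between 27987043 and 31789316 in the AI libraries and between 19461678 and 32152427 in the Control libraries, where Control 1 was the shallowest. Levels below are in CPM, the reads of a gene relative to the library total after scaling for composition. CPM is not divided by gene length, so a level class is a class of read depth and does not rank genes by abundance.

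Far more genes rose than fell in explants with an AI conceptus. Of 15227 genes tested, 418 were higher than in Control and 62 were lower at an adjusted p under 0.05 (edgeR, quasi-likelihood test over all genes, Benjamini-Hochberg). These are 2.75% and 0.407% of the genes tested, and 3.15% together. Among risen genes the log2 fold change had a median of 1.47, an interquartile range of 0.90 to 2.55 and a maximum of 8.45. Among fallen genes the median was -0.79, the interquartile range -1.08 to -0.53 and the minimum -2.98. Over all genes tested the median was -0.00. The explant is a mixture of cell types, so fewer cells of a type and less RNA per cell cannot be told apart in any of these values.

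**Figure D1:**
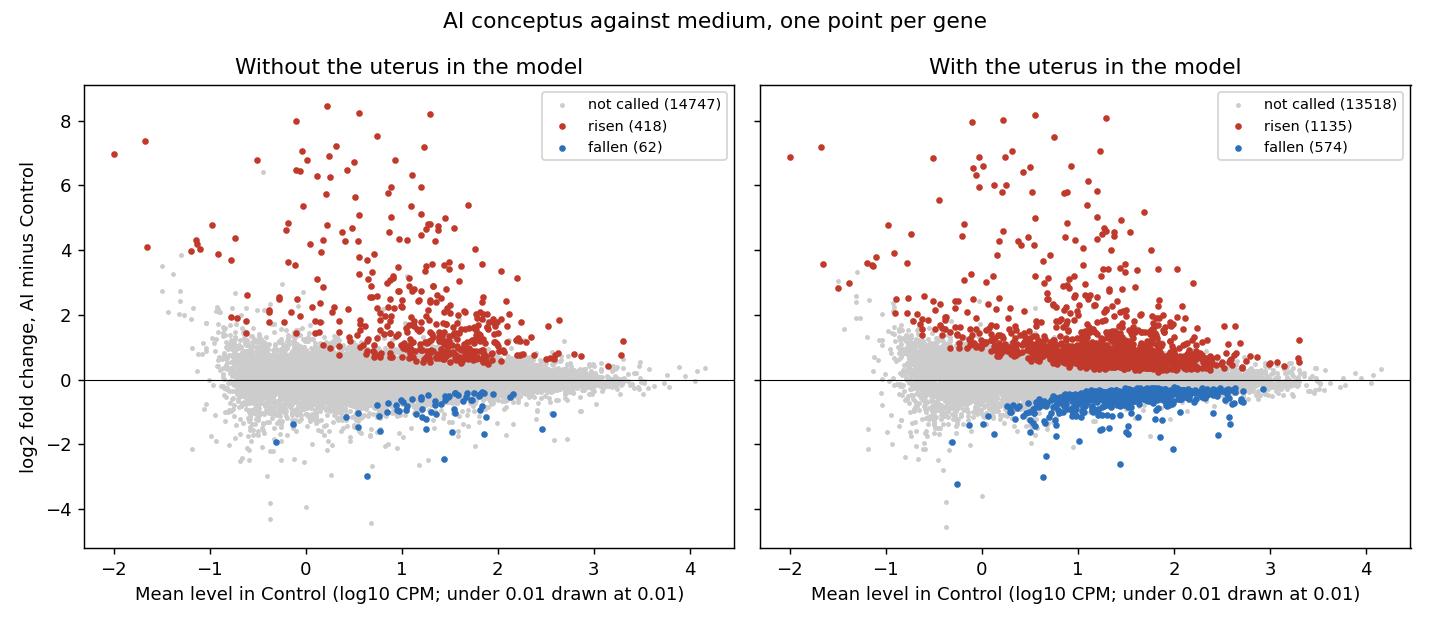
Each point is a gene, placed by its mean level in Control (log10 CPM) and its log2 fold change, AI minus Control, without (left) and with (right) the uterus as a term of the model. Red genes were called higher and blue genes lower (418 and 62 on the left, 1135 and 574 on the right), and the called changes reach further up than down.

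The number of risen genes held up better than that of fallen genes. Leaving out any 1 library or any 1 uterus gave 287 to 426 risen genes. The 62 fallen genes numbered 38 when Control 1 was left out, and leaving out AI 1, AI 2, AI 3 or AI 4 gave 38, 39, 41 or 28. When all libraries of uterus 1, 2, 3, 4 or 5 were left out they numbered 15, 30, 32, 13 or 108. DESeq2 called 489 risen and 151 fallen genes.

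The calls were visible in single explants in both directions. Of the 418 risen genes, 415 were higher in AI than in its paired Control in all 4 pairs, and of the 62 fallen genes all 62 were lower in all 4 pairs. Over all genes tested, 19.6% were higher and 18% lower in all 4 pairs. The AI libraries lay above all 6 Control libraries without overlap for 378 risen genes and below them for 56 fallen genes, against 3.97% and 1.58% of all genes tested. These libraries also made the calls, so the counts describe them and are no further evidence.

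The risen genes took a larger share of the reads with an AI conceptus. Together they took 2.30% of the counts in Control 1, 2.40% in Control 2, 2.16% in Control 3, 2.29% in Control 4, 2.52% in Control 5 and 2.36% in Control 10. In AI 1, 2, 3 and 4 they took 9.11%, 7.91%, 8.70% and 6.16%. Every AI library was thus far above every Control library, and AI 4 was the lowest of the 4. The genes were chosen as higher in these same libraries, so the separation describes them and is no further evidence. The rise within a uterus was 5.69 percentage points ± 1.33 (SD, n = 4 pairs). The 10 genes with the most reads in each condition held 30.9% of the reads of the group in AI and 39.4% in Control.

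The 62 fallen genes made up little of the reads. Their share was 0.321%, 0.286%, 0.285%, 0.264%, 0.258% and 0.238% of the counts in Control 1, 2, 3, 4, 5 and 10. It was 0.151%, 0.154%, 0.145% and 0.135% in AI 1, 2, 3 and 4. The groups did not overlap, and the 4 AI values lay closer together than the Control values, which include uteri 5 and 10. The genes were chosen as lower in these same libraries, so neither the separation nor the spread is further evidence. Within a uterus the share fell by 0.143 percentage points ± 0.0186 (SD, n = 4 pairs).

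**Figure D2:**
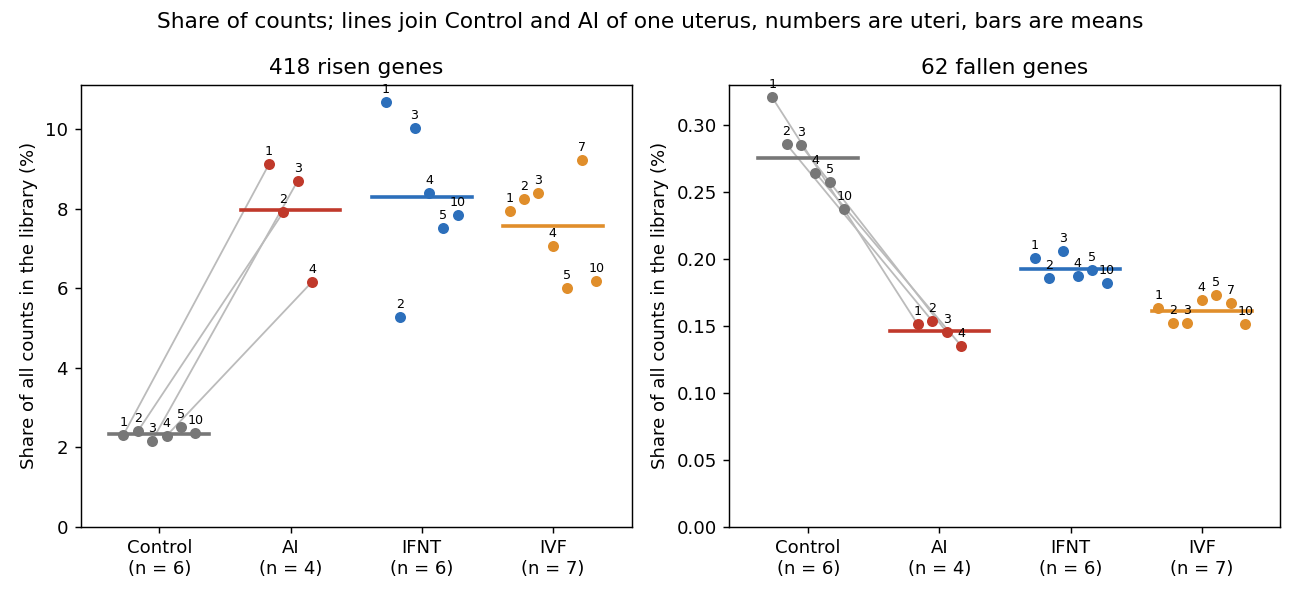
Share of all counts (%) taken by the 418 genes that rose (left) and the 62 genes that fell (right) with an AI conceptus, in every library of the series; numbers are uteri, bars are group means and lines join the pairs. Control libraries lie between 2.16% and 2.52% on the left and AI libraries between 6.16% and 9.11%, and on the right AI libraries lie below all Control libraries. The genes were chosen on these AI and Control libraries.

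Genes that rose over 8-fold formed a group of 89. Their median level was 4.85, 4.48, 4.36, 4.32, 4.95 and 3.43 CPM in Control 1, 2, 3, 4, 5 and 10. It was 168, 138, 166 and 102 CPM in AI 1, 2, 3 and 4. They were thus among the genes with few reads in medium and reached ample depth in every AI library, with AI 4 the lowest. The AI libraries overlapped no Control library for 82 of the 89, where AI lay above every Control library for 3.97% of all genes tested. The 58 genes that rose 4 to 8-fold had library medians of 10.97 to 13.9 CPM in Control and 48.7 to 103 CPM in AI. The 151 genes that rose 2 to 4-fold had medians of 21.4 to 24.9 CPM in Control and 49.3 to 70.6 CPM in AI. The 120 genes that rose under 2-fold had medians of 33.8 to 37.7 CPM in Control and 55.5 to 62.0 CPM in AI, and 96 of them did not overlap. The classes of larger rise thus started from lower levels in Control. The fold is itself measured from the Control level, so the order of the classes is not independent of it.

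Grouped by their level in Control, the risen genes came from all classes of read depth. They numbered 36 of 1841 genes tested under 1 CPM, 106 of 4365 from 1 to 10 CPM, 242 of 7217 from 10 to 100 CPM and 34 of 1804 over 100 CPM. Their median log2 fold changes in these classes were 3.78, 2.22, 1.20 and 1.04. The 34 deeply read genes thus still rose about as far as the 242 of the class below, at a median level of 172 CPM in Control. A gene with few reads needs a larger change to be called, so medians of called genes are not like for like across classes.

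No fallen gene changed over 8-fold in the model without the uterus, only 2 fell 4 to 8-fold and 20 fell 2 to 4-fold. These 22 genes had medians of 12.8 to 19.7 CPM in the 6 Control libraries and of 5.11, 6.28, 6.84 and 6.35 CPM in AI 1, 2, 3 and 4. The remaining 40 fell under 2-fold, from library medians of 24.7 to 34.3 CPM in Control to 19.4 to 21.5 CPM in AI. By level in Control, 2 of the 62 were under 1 CPM, 13 from 1 to 10 CPM, 43 from 10 to 100 CPM and 4 over 100 CPM.

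**Figure D3:**
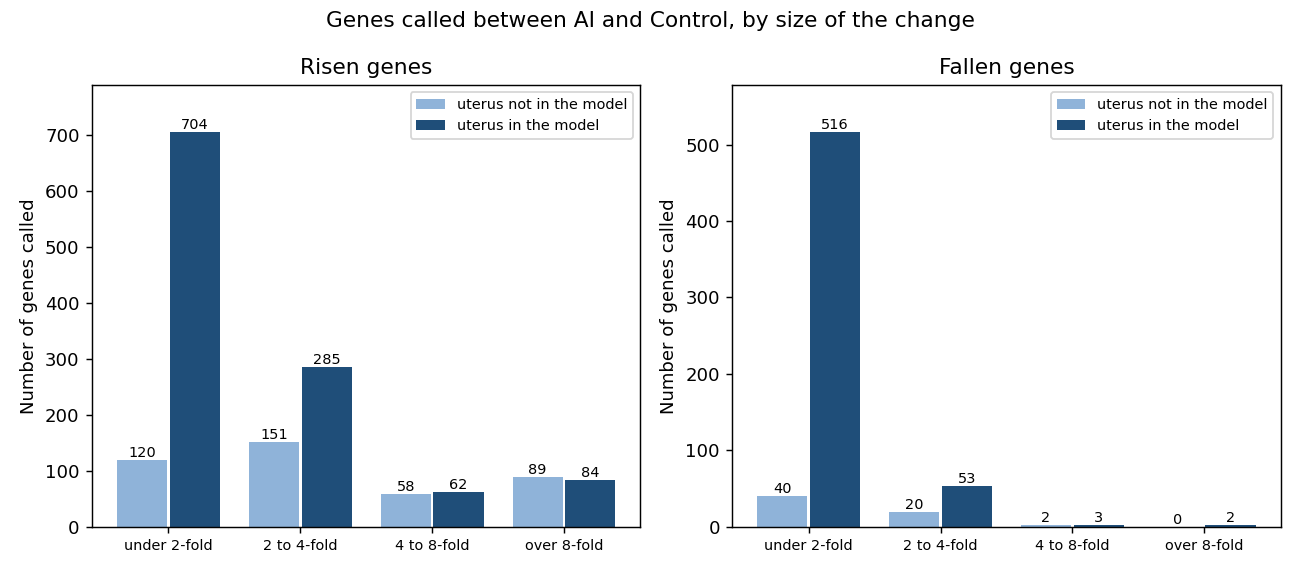
Number of genes called higher (left) and lower (right) in AI than in Control by the size of the change, without (light bars) and with (dark bars) the uterus in the model. Among risen genes the classes over 4-fold hardly change between the models (58 and 89 against 62 and 84), and the class under 2-fold grows from 120 to 704.

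The identifier with the largest rise was ENSBTAG00000008471. It stood at 4.27, 0.700, 2.12, 1.17, 1.06 and 0.695 CPM in Control 1, 2, 3, 4, 5 and 10. In AI 1, 2, 3 and 4 it stood at 837, 396, 918 and 156 CPM. All AI libraries were far above all Control libraries, and AI 4 held less than the others. This and the 3 identifiers below were chosen for large changes in these same libraries, so their separation is no further evidence. The log2 fold change was 8.45 ± 0.81 (SE, edgeR adjusted p = 8.31e-08), and the differences within uteri 1, 2, 3 and 4 were 7.59, 9.01, 8.71 and 6.98 on the log2 CPM scale.

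The next was ENSBTAG00000009768, which gave the smallest p of all genes in this comparison. Its level was 5.82, 2.10, 3.61, 4.00, 3.76 and 2.25 CPM in the Control libraries of uteri 1, 2, 3, 4, 5 and 10. In AI 1, 2, 3 and 4 it was 1243, 920, 1356 and 802 CPM. The AI values spread less than those of the gene before, and again AI 4 was the lowest. Its log2 fold change was 8.24 ± 0.33 (SE, edgeR adjusted p = 1.32e-13).

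Among fallen genes, ENSBTAG00000008735 had the firmer change. It stood at 34.6, 33.9, 37.8, 25.2, 16.8 and 17.2 CPM in Control 1, 2, 3, 4, 5 and 10 and at 4.50, 4.92, 6.90 and 3.98 CPM in AI 1, 2, 3 and 4. The groups did not overlap, and the differences within uteri, -2.92, -2.77, -2.44 and -2.64, were close to each other. The log2 fold change was -2.44 ± 0.34 (SE, edgeR adjusted p = 3.4e-05).

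The lowest log2 fold change belonged to ENSBTAG00000001021, a gene with few reads. Control 1, 2, 3, 4, 5 and 10 held 139, 80, 326, 53, 66 and 52 of its reads, or 6.74, 2.80, 10.3, 1.67, 2.07 and 2.12 CPM. AI 1, 2, 3 and 4 held 1, 24, 24 and 13 reads, or 0.0321, 0.762, 0.919 and 0.462 CPM. The groups did not overlap, but the difference within a uterus ran from -6.07 in uterus 1, where AI held a single read, to -1.71 in uterus 4. The log2 fold change was -2.98 ± 0.80 (SE, edgeR adjusted p = 0.0387). The call was lost without Control 1 (adjusted p = 0.0766), Control 3 (0.111), AI 1 (0.119), AI 2 (0.0865), AI 3 (0.0659) or AI 4 (0.124), without all libraries of uterus 1 (0.247), 2 (0.0776), 3 (0.117) or 4 (0.165), and in a model of AI and Control alone (0.0626), all by edgeR. With the uterus in the model the adjusted p was 0.00832, and 0.0752 when uterus 3 was left out.

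**Figure D4:**
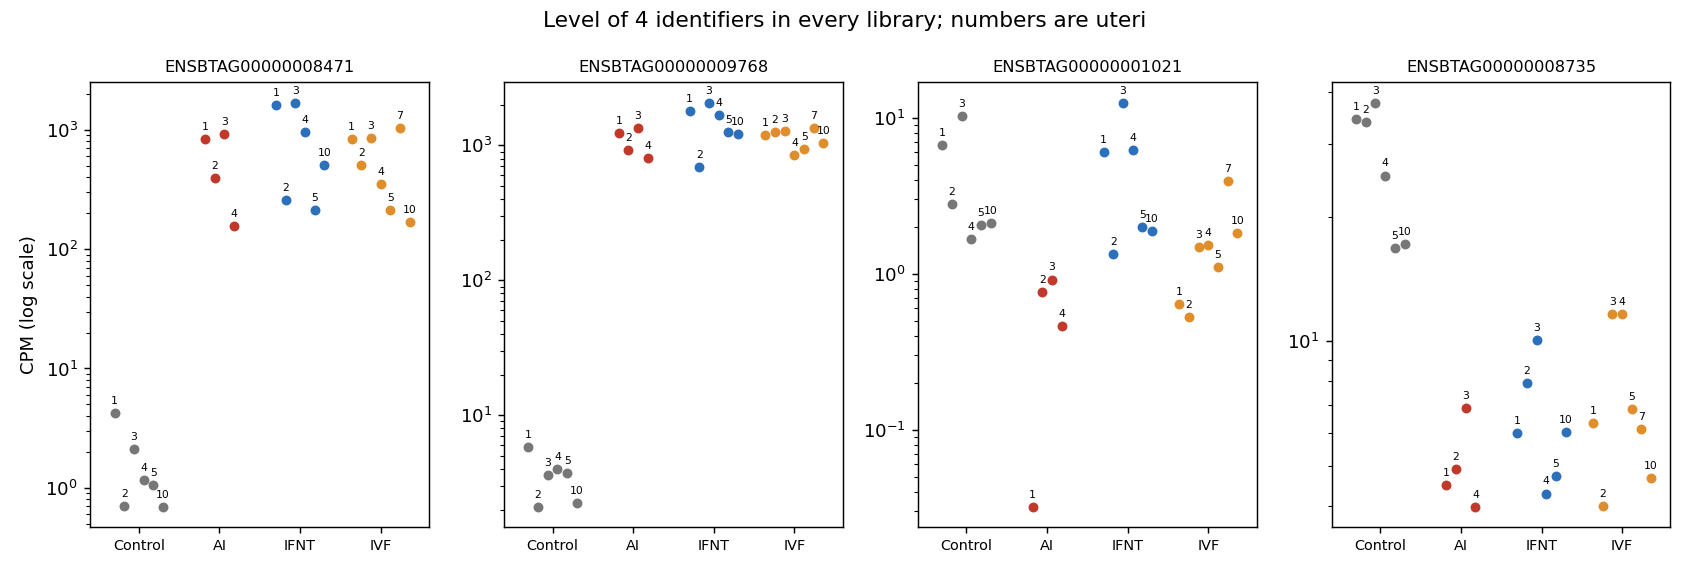
Level (CPM, log scale) of the 2 identifiers that rose most and the 2 that fell most with an AI conceptus, in every library; numbers are uteri. AI and Control libraries do not overlap for any of the 4, and the AI 1 point of ENSBTAG00000001021 stands for 1 read. The 4 were chosen for their large changes in these libraries, so this separation is no further evidence. Of all genes tested, 3.97% lay above and 1.58% below every Control library.

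When the uterus was added to the model as a block, which removes differences between uteri that all treatments share, 1135 genes were higher and 574 lower with an AI conceptus (edgeR, 7.45% and 3.77% of the genes tested, 11.2% together). They included 417 of the 418 and all 62 of the genes called without it. A model of the 4 complete pairs alone called 1276 higher and 595 lower, of which 969 and 386 were among the 1135 and 574. The 718 risen and 512 fallen genes called only with the block had median log2 fold changes of 0.68 and -0.48 in that model. Of all genes called with the block, 704 of the 1135 risen and 516 of the 574 fallen genes changed under 2-fold. Fallen genes came closer in number to risen genes here, and DESeq2 with the uterus called 1331 higher and 969 lower.

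Of the 1135 genes, 1113 were higher in all 4 pairs, and of the 574 genes, 564 were lower in all 4. Over all genes tested, 19.6% were higher and 18% lower in all 4. The fallen genes took 3.57% to 4.38% of the counts in the 6 Control libraries and 2.49% to 2.85% in the 4 AI libraries, without overlap. The same libraries made the calls, so these values are no further evidence. The blocked counts leaned on single explants. Leaving out AI 3 or AI 4 turned the 1135 into 651 or 741, and leaving out uterus 1, 3 or 4 turned it into 655, 466 or 595. For the 574, leaving out Control 1, Control 2, AI 3 or AI 4 gave 336, 322, 267 or 231. Leaving out uterus 1, 2, 3 or 4 gave 318, 368, 222 or 151.

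To read the response in explants that had no part in choosing the genes, genes were called without all libraries of a uterus and their level was then read in that uterus. This reading was chosen after seeing the data. Called without the block, 287, 337, 291 and 346 risen genes had a median log2 difference, AI minus Control, of 1.98, 1.72, 2.01 and 1.37 in uteri 1, 2, 3 and 4. The mean of the 4 was 1.77 ± 0.30 (SD, n = 4 uteri). The share of these genes that was higher in AI was 99.3%, 99.7%, 99.3% and 99.1%, where 47.3%, 48.5%, 49.0% and 54.3% of all genes were higher. The rise was thus present in each uterus and, for these genes, smallest in uterus 4, whose AI conceptus was the shortest and the only male. For the same genes the IVF explants of uteri 1, 2, 3 and 4 stood at 1.84, 1.75, 1.97 and 1.71 against the same Control explants. The lowest IVF value was that of uterus 4, but it was close to that of uterus 2, and each uterus had its own gene list. For risen genes called with the block, IVF stood at 0.88, 0.76, 1.34 and 0.98, lowest in uterus 2. The IVF conceptuses of uteri 1, 2, 3 and 4 measured 14, 8, 21 and 19 mm. Those of uteri 1 and 3 were male, and those of uteri 2 and 4 were female. The IFNT explants, without a conceptus, stood at 2.20, 1.10, 2.24 and 1.88. Among the 418 genes called on all libraries, the smallest of the 4 rises was that of uterus 4 for 244 genes and that of uterus 1, 2 and 3 for 71, 58 and 45. Whether length, sex or the uterus had a part was not tested.

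Fallen genes held their direction too, over fewer genes. The 15, 30, 32 and 13 genes called lower without uterus 1, 2, 3 and 4 had medians of -1.23, -0.93, -0.81 and -0.86 there. Of them, 100%, 100%, 90.6% and 100% were lower in AI than in Control. Over all genes, 52.5%, 51.3%, 50.7% and 45.6% were lower in AI in these uteri. With the block, the 318, 368, 222 and 151 fallen genes had medians of -0.43, -0.52, -0.55 and -0.67, and 94.0%, 98.9%, 94.6% and 100% of them were lower in AI than in Control. The larger number of small decreases called with the block was thus also seen in the uterus left out. The 655, 882, 466 and 595 risen genes called with the block had medians of 1.00, 0.81, 1.49 and 1.03, the smallest of them in uterus 2.

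**Figure D5:**
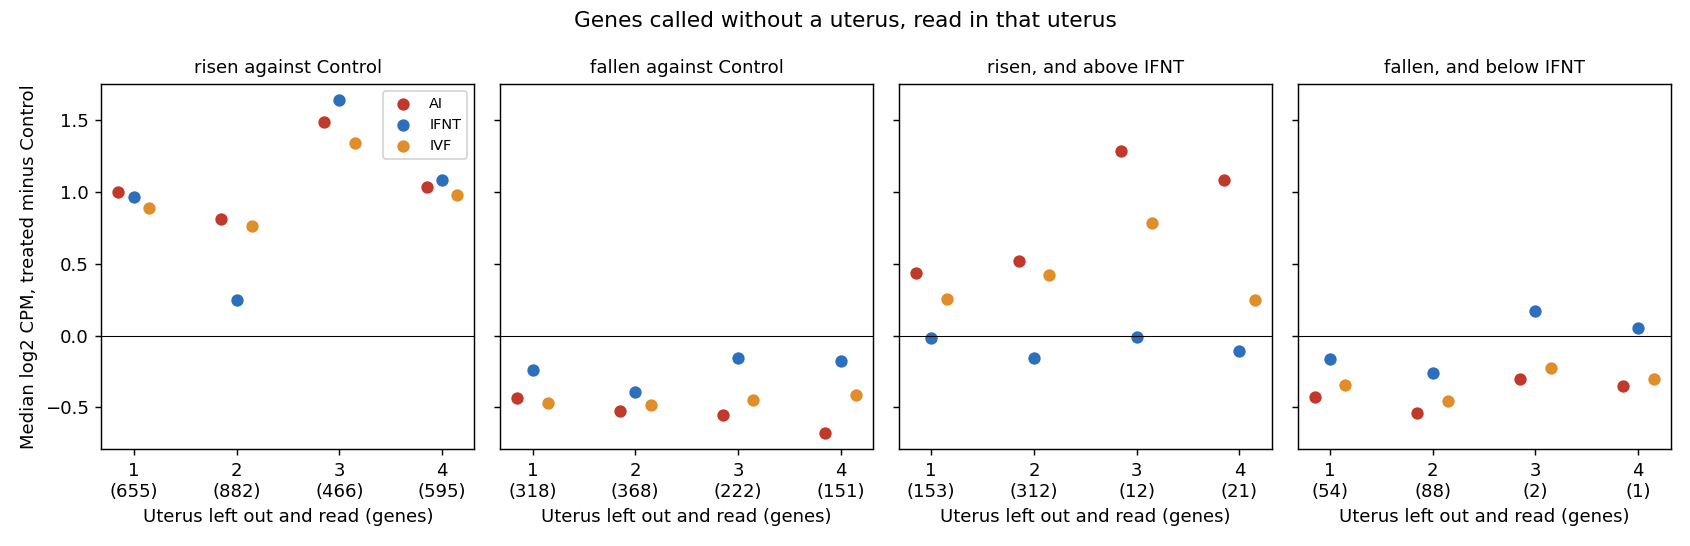
Median log2 CPM difference from the Control explant of the same uterus, for genes called (with the uterus in the model) without that uterus; the number of genes stands in parentheses, and points are the AI, IFNT and IVF explants of that uterus, which share the Control explant. AI points are above 0 in every panel of risen genes and below 0 in every panel of fallen genes, and the 2 panels on the right hold 12 and 21, and 2 and 1, genes in uteri 3 and 4.

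Beside interferon tau alone, the ranges of the strongly risen genes overlapped. The comparisons with IFNT and IVF share the Control explants, so their values are only set side by side: the 418 risen genes had medians of 1.47 (AI), 1.501 (IFNT) and 1.48 (IVF) against Control, and the 62 fallen genes -0.79, -0.29 and -0.53. These genes were chosen on AI. The 89 genes over 8-fold had library medians of 102 to 168 CPM with AI and of 85.8 to 228 CPM with IFNT, and AI libraries lay within the IFNT range. For the identifier ENSBTAG00000008471 the IFNT libraries ranged from 215 to 1695 CPM with a median of 730 CPM. The direct difference, AI minus IFNT, was -0.60 ± 0.64 (SE, 95% interval -1.95 to 0.75, edgeR adjusted p = 0.814) without the uterus in the model and -0.98 ± 0.37 (SE, 95% interval -1.79 to -0.18, edgeR adjusted p = 0.123) with it. For ENSBTAG00000009768 it was -0.43 ± 0.27 (SE, 95% interval -0.999 to 0.13, edgeR adjusted p = 0.624) without the uterus and -0.49 ± 0.23 (SE, 95% interval -0.982 to -0.0055, edgeR adjusted p = 0.205) with it. With the uterus in the model both single-gene intervals lay below 0, and neither gene passed the adjustment over all genes.

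In the uterus left out, the risen genes called without the block differed between AI and IFNT by -0.26, 0.67, -0.28 and -0.51 in uteri 1, 2, 3 and 4. AI was thus the lower of the pair in 3 uteri and the higher in uterus 2. The IFNT explant of uterus 2 stood apart from the other IFNT explants: the 418 risen genes took 5.27% of its counts and 7.52% to 10.7% of theirs. The fallen genes differed by -0.52, -0.36, -0.49 and -0.27, lower with AI than with IFNT in all 4 uteri. With the block they differed by -0.19, -0.08, -0.39 and -0.51, where the median of all genes lay between -0.03 and 0.07.

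The direct test of AI against IFNT without the uterus in the model called 0 of 15227 genes (edgeR, smallest adjusted p = 0.0839), with 1495 genes (9.82%) at an unadjusted p under 0.05, and DESeq2 called 36. Leaving out uterus 10 gave 3 genes. Adding the uterus as a block, edgeR found 747 genes higher and 311 lower in AI than in IFNT, which is 4.91% and 2.04% of the genes tested and 1058 genes or 6.95% together. This total depended on few explants. Leaving out IFNT 3 or IFNT 4 gave 401 or 523, and leaving out AI 1, AI 2, AI 3 or AI 4 gave 612, 646, 340 or 211. Leaving out uterus 1, 2, 3 or 4 gave 361, 668, 15 or 25, and a model of only the 4 AI and 4 IFNT explants of uteri 1 to 4 called 44.

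Among genes called against Control with the block, 425 risen genes were also above IFNT, 165 fallen genes were also below it, and 8 risen genes were below it. Both comparisons use the same AI libraries, so their calls are not independent. Relative to the same Control explants, the 425 genes had median log2 differences of 0.74 (AI), -0.09 (IFNT) and 0.27 (IVF). Their share of the counts was 2.93% to 3.20% in AI and 1.65% to 2.38% in IFNT, without overlap. It was 1.88% to 2.82% in Control and 2.28% to 3.03% in IVF, whose range overlapped that of AI. The genes were chosen as higher in AI on these AI, IFNT and Control libraries, so the separation is no further evidence. For the 165 genes these medians were -0.55 (AI), -0.01 (IFNT) and -0.28 (IVF), and for the 8 genes they were 1.01 (AI) and 1.54 (IFNT).

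These 2 groups shrank when explants were left out. In place of the 425, a model lacking Control 2, Control 3 or IFNT 3 gave 270, 262 or 250, one lacking AI 3 or AI 4 gave 143 or 135, and one lacking uterus 1, 3 or 4 gave 153, 12 or 21. In place of the 165, models lacking Control 1 or Control 2 gave 100 or 99, and those lacking IFNT 3 or IFNT 4 gave 55 or 81. Models lacking AI 1, AI 2, AI 3 or AI 4 gave 101, 85, 54 or 20, and models lacking uterus 1, 2, 3 or 4 gave 54, 88, 2 or 1.

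Read in the uterus left out, the genes called above both Control and IFNT kept their order. The 153 such genes of uterus 1 differed between AI and IFNT by 0.41 and the 312 of uterus 2 by 0.61, with 89.5% and 93.9% of them higher in AI. Over all genes, 47.0% and 55.2% were higher in AI than in IFNT in uteri 1 and 2. In uteri 3 and 4 only 12 and 21 genes could be read, which differed by 1.42 and 1.08. All risen genes called with the block differed by -0.09, 0.61, -0.12 and -0.20 in uteri 1, 2, 3 and 4. In uterus 2, 92.0% of them were higher in AI. The genes above both thus stood above the risen genes as a whole in uteri 1, 3 and 4 and level with them in uterus 2. Against Control, the 4 groups of genes above both stood at 0.43, 0.52, 1.28 and 1.08 with AI and at -0.02, -0.15, -0.01 and -0.10 with IFNT. The 54 and 88 genes below both in uteri 1 and 2 differed between AI and IFNT by -0.26 and -0.28.

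The fallen identifiers were also compared with IFNT directly. ENSBTAG00000008735 ranged from 4.28 to 10.1 CPM with IFNT, and AI minus IFNT was -0.36 ± 0.32 (SE, 95% interval -1.02 to 0.30, edgeR adjusted p = 0.757) without the uterus in the model and -0.56 ± 0.27 (SE, 95% interval -1.13 to 0.017, edgeR adjusted p = 0.223) with it. ENSBTAG00000001021 ranged from 1.34 to 12.5 CPM with IFNT, all above the AI libraries. Its AI minus IFNT difference was -3.20 ± 0.81 (SE, edgeR adjusted p = 0.251) without the uterus in the model and -3.15 ± 0.68 (SE, edgeR adjusted p = 0.014) with it. Within uteri 1, 2, 3 and 4 it was -5.91, -0.77, -3.67 and -3.56 on the log2 CPM scale.

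Between AI and IVF conceptuses, edgeR called 0 of 15227 genes without and with the uterus in the model, with 343 and 1254 genes at an unadjusted p under 0.05 and smallest adjusted p of 0.656 and 0.215. DESeq2 called 0 and 92, and edgeR with the uterus called 12 when IVF 2 was left out and 1 when uterus 2 was left out. These counts do not show that both kinds of conceptus act alike: the median standard error of a difference over all genes was 0.24 on the log2 scale without the uterus and 0.18 with it. Conceptus length was 26.1 ± 4.66 mm in AI (SD, n = 4) and 25.4 ± 15.2 mm in IVF (SD, n = 7). The IVF conceptuses of uteri 2 and 4 were female and those of uteri 1, 3, 5, 7 and 10 male. Neither length nor sex was in the models. In the uterus left out, the risen genes called without the block differed between AI and IVF by 0.16, -0.05, 0.05 and -0.24 in uteri 1, 2, 3 and 4, with no common direction. For ENSBTAG00000008471 the difference, AI minus IVF, was 0.02 (95% interval -1.26 to 1.31) without the uterus and -0.23 (95% interval -1.0004 to 0.54) with it. For ENSBTAG00000009768 it was -0.06 (95% interval -0.61 to 0.48) without and -0.14 (95% interval -0.63 to 0.34) with it.

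Few genes without reads in medium gained reads with a conceptus. Of 2001 genes with at most 3 reads over the 6 Control libraries, 22 averaged 2.5 or more reads per AI library, and the highest average was 15.5 reads. In the IFNT and IVF libraries 26 and 34 of the 2001 did so. A total of 15 had at least 1 read in all 4 AI libraries. Genes close to silent in medium thus averaged few reads in the AI libraries too.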

How the data were processed

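Counts came from 4 AI and 6 Control explants, fitted together with 6 IFNT and 7 IVF explants. The authors deposited 1 table of raw read counts for 18897 Ensembl genes. Per the submitters' processing notes, HISAT2, StringTie, edgeR and the build UMD3.1 were used. Their versions, how reads were counted and with which annotation and strand setting is not given in the sources used here, so overlapping or near-identical genes may share reads. The kit was TruSeq stranded mRNA, per the labels' protocols.

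Columns were matched by the name in each sample's description. Over 45 pairs of AI and Control libraries, a chi-square test of counts gave at least 46.7 per degree of freedom, so no library was a duplicate. In R 4.3.3, edgeR 4.0.16 kept 15227 genes (filterByExpr, 99.98% of counts) and scaled them by TMM, fitted 4 group means and tested contrasts with the quasi-likelihood test at a Benjamini-Hochberg adjusted p under 0.05. DESeq2 1.42.0 was an alternative. Log2 CPM used a prior count of 2. Intervals use the residual degrees of freedom, 19 without and 13 with the uterus.

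Uterus numbers come from the titles. Deviations from group means correlated in all 30 same-number pairs of libraries (r from 0.15 to 0.71, median 0.51). For AI with Control r was 0.49 to 0.63 and for AI with IFNT 0.19 to 0.64. In 166 pairs of different number and group r ran from -0.45 to 0.49 (median -0.08), so the ranges overlap. The numbers were taken to pair the libraries. The model without the block was the one fixed, and the blocked values stand beside it.

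On simulated data for AI vs Control over 15106 genes, 4.48%, 35.8% and 66.7% of genes changed 1.5, 2 and 4-fold were recovered without the block. With it 23.9%, 65.7% and 87.9% were recovered, and 0 of 71 and 4 of 122 calls were false without and with it. The simulation changed 67, 67 and 66 genes by these folds, in AI alone. Far more genes were called in the real libraries, so these rates need not hold for them. The comparison, gene groups and tests were chosen with earlier results of these data known. With no symbols, the rule for named genes allowed 4 identifiers: among called genes averaging 1 log2 CPM or more, the 2 with the largest and the 2 with the smallest log2 fold change. The lists of genes by function could not be used.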

Additional observations from a re-analysis of the deposited data

Results flagged for a closer look

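A difference between AI and IFNT explants, tested directly with the uterus in the model, was found for 1058 genes (edgeR adjusted p under 0.05), where the model without the uterus called 0. For ENSBTAG00000001021 that test gave a log2 difference, AI minus IFNT, of -3.15, with lower values in AI in 4 of 4 uteri and between 1 and 24 reads per AI library. In 36 groups of 4 or 6 values of the AI and Control explants, no value lay apart from the others by Dixon's test, where chance would give about 1 in 20 groups.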

How the results depend on the processing

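The identifiers ENSBTAG00000008471, ENSBTAG00000009768 and ENSBTAG00000008735 kept their call in all 40 alternatives. ENSBTAG00000001021 kept its direction in all 40 and lost its call in 12, given in the text. Risen genes against Control numbered 358 to 489 with other size factors, no filter on low counts, DESeq2 or the compared groups alone, and 287 to 426 when a library or uterus was left out. The uterus block keeps 13 of 19 residual degrees of freedom and lowers the biological coefficient of variation from 36.6% to 23.9%. Why it and DESeq2 change the counts was not tested beyond this. The numbers were taken to pair the libraries. Adding the block ended no call of the 4 identifiers against Control and left edgeR at 0 genes between AI and IVF.

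Without the block, DESeq2 gave 151 fallen genes against Control, 36 between AI and IFNT, and 15 risen and 5 fallen beyond both. Leaving out a library or uterus gave 13 to 108 fallen genes, 0 to 3 between AI and IFNT, and 0 to 2 risen and 0 to 1 fallen beyond both.

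With the replicate block, the counts were 1135 risen and 574 fallen against Control, 1058 between AI and IFNT, and 425 risen and 165 fallen beyond both. DESeq2 with the block gave 1331, 969, 1729, 597 and 353, and 92 between AI and IVF. Median-ratio size factors with the block gave 1041, 614, 1023, 385 and 173. The compared groups of uteri 1 to 4 with the block gave 1276, 595, 44, 33 and 1. Leaving out a library or uterus with the block gave 466 to 1144, 151 to 616, 15 to 1172, 12 to 409 and 1 to 191, and 0 to 12 between AI and IVF.

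In the simulated libraries, which held far fewer changed genes than were called here, 4.48% of the 1.5-fold changes were recovered without the block. The counts are no limit on how many genes changed.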
